A study of Mus musculus with 5 samples.

Results

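Before stimulation, 683 of 2952 OT-I CD8+ T cells (23.1%, exact 95% interval 21.6 to 24.7%) had a value above 0 for Ccl5, the gene of the chemokine CCL5 (RANTES). These 683 cells, of 13629 cells in the series, were chosen by that value alone and are set here against the 2269 cells of the same library in which Ccl5 was 0. OT-I cells come from mice of strain C57BL/6-Tg(TcraTcrb)1100Mjb/J and carry a transgenic T cell receptor that recognises the ovalbumin peptide SIINFEKL. Spleens and lymph nodes were the source of all cells, which were purified by flow cytometry. The 0 h cells had not been cultured with dendritic cells (DCs). The other 4 libraries held cells after 24 h or 72 h with peptide-loaded DCs, without or with myeloid-derived suppressor cells (MDSCs), and are used here only to ask whether the same genes go with Ccl5. Each group was 1 library, and neither the number nor the age of the mice is given in the labels. No difference therefore has a replicate check, no test was run, and intervals cover counting error only.

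CCL5 draws T cells and other leukocytes to tissues. Naive CD8+ T cells have little Ccl5 transcript, whereas memory CD8+ T cells store it and can release the protein soon after their receptor is engaged. Mice that have met no antigen also hold memory-like CD8+ T cells, called virtual memory cells, that arise in response to cytokines and are known for CD44, the interleukin 2 and 15 receptor beta chain CD122, CXCR3, Ly6C and the transcription factor Eomes. Killer cell lectin-like receptors, first described on natural killer (NK) cells, appear on memory and effector CD8+ T cells as well.

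The Ccl5 values spanned 1 to 600 adjusted counts per cell, where an adjusted count is a whole number that the authors had scaled for depth. The lowest members stood just inside the threshold: 21 cells had the value 1 and 356 the value 2, the median. The upper quartile was 22.5. The positive cells were therefore read in 3 ranges of Ccl5 chosen after their values were seen, low (1 to 2, 377 cells), middle (3 to 44, 153 cells) and high (45 to 600, 153 cells). The low range held 2.35% of all Ccl5 of the 0 h library, the middle range 4.77% and the high range 92.9%. The high range was 5.18% of the 0 h cells (4.41 to 6.05%). No population in this library is known to lack Ccl5, so the share of cells that free RNA in droplets would give was not measured. Of the 683 cell barcodes, 12 occurred in another library too.

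**Figure D1:**
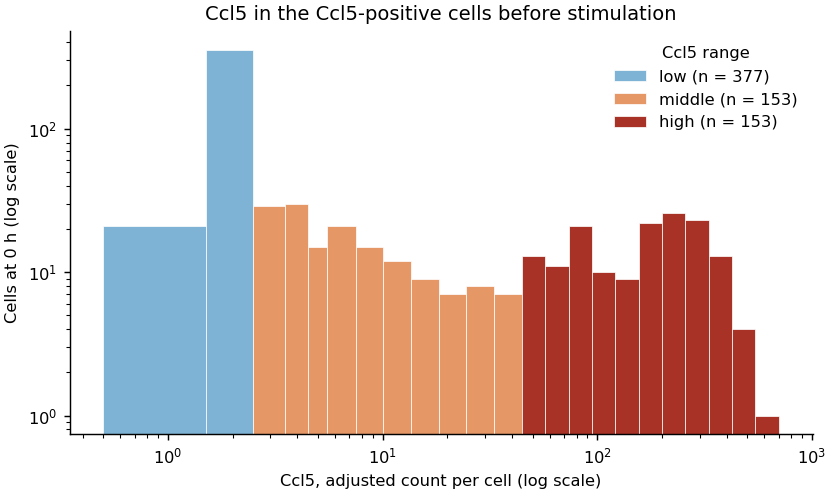
Number of Ccl5-positive 0 h cells (y axis, log scale) by adjusted Ccl5 count per cell (x axis, log scale), with the low, middle and high ranges in blue, orange and red. The tallest bar holds the 356 cells with the value 2, and the 153 cells of the high range spread from 45 to 600.

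The whole Ccl5-positive set differed from the Ccl5-zero set in few genes, with Klrk1, Gzma and Ly6c2 farthest apart. Levels are adjusted counts of a gene per 1000000 adjusted counts of a set of cells (CPM). Of 1958 genes at 50 CPM or more in either set, 7 were at least 2-fold higher in the positive cells (0.358%) and 0 were at least 2-fold lower (0.0%). The rule chose the cells by their transcripts, so these ratios describe the sets and support nothing by themselves. Klrk1 encodes NKG2D, an activating receptor for stress-induced ligands, and stood at 82.9 CPM in positive and 0.724 CPM in Ccl5-zero cells. Gzma, the serine protease granzyme A, stood at 173.5 CPM and 3.81 CPM. Ly6c2, which encodes the surface protein Ly6C, stood at 314 CPM and 48.3 CPM. Its neighbour Ly6c1 is nearly identical in sequence, so reads of the pair may have been split, although Ly6c1 was counted at only 3.03 CPM and 1.51 CPM. The remaining 4 genes were Cd160, a receptor of cytotoxic cells (63.7 and 18.8 CPM), Id2, an inhibitor of DNA binding that favours effector cells (125 and 41.0 CPM), the calcium-binding S100a6 (282 and 94.6 CPM) and the calcium-binding Efhd2 (57.4 and 28.4 CPM). Of the 7 genes S100a6 alone was at 50 CPM or more in Ccl5-zero cells. A gene that reaches this level only in positive cells could not have been lower. Counts of higher and lower genes at 50 CPM are therefore not compared with each other, here or for the ranges below. Past 1.5-fold at 50 CPM there were 11 higher genes (0.562%) and 2 lower ones (0.102%). The lower ones were Ccr9, a gut-homing receptor of naive CD8+ cells (37.95 and 57.4 CPM), and Tdrp (36.1 and 55.8 CPM).

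Cells with 1 or 2 adjusted counts of Ccl5 had levels close to those of Ccl5-zero cells. In the low range 0 of 1922 genes were past 2-fold in either direction (0.0%), and 0 at 1.5-fold. Klrk1 was above 0 in 2 of 377 low-range cells (0.531%, 0.0643 to 1.90%), against 12 of 2269 Ccl5-zero cells (0.529%, 0.274 to 0.922%). Ly6c2 was above 0 in 13.5% of low-range cells and 14.1% of Ccl5-zero cells, and Cxcr3 in 4.24% and 4.14%. Gene lists are counted here over members at 10 CPM or more in the Ccl5-zero cells, because a member that reaches this level only in the Ccl5-positive cells could not have been anything but higher. Of 17 such memory and virtual memory genes 0 were past 1.5-fold in the low range (median log2 ratio 0.037), beside 0.198% higher and 0.751% lower of all 5057 genes at that level. Without its upper 306 cells the positive set had 0 genes past 2-fold, and with those 306 cells alone it had 27 higher (1.32%) and 6 lower (0.293%).

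In the middle range Ly6c2 was farthest from its level in Ccl5-zero cells among the genes past 2-fold at 50 CPM. The killer cell receptor genes Klrk1 and Klrc1 were above 0 in few or none of the middle-range cells. Past 2-fold lay 2 higher genes (0.103%) and 2 lower genes (0.103%) of 1945. Of the 17 memory genes 2 were past 1.5-fold higher and 0 lower (median log2 ratio 0.17), beside 1.52% higher and 5.91% lower of the 5057 genes. Ly6c2 was at 463 CPM in the middle range and 48.3 CPM in Ccl5-zero cells, and above 0 in 85 of 153 cells (55.6%, 47.3 to 63.6%) and 320 of 2269 (14.1%, 12.7 to 15.6%). Ms4a4c was at 60.7 and 20.8 CPM, and above 0 in 34.6% and 12.2% of cells. Cxcr3, a receptor for interferon-induced chemokines, was just under the minimum level at 45.4 CPM in the middle range, against 6.48 CPM, and above 0 in 24.2% (17.6 to 31.8%) and 4.14% (3.36 to 5.05%) of cells. Ccr9 (19.45 and 57.4 CPM) and Tdrp (27.3 and 55.8 CPM) were the 2 lower genes. Klrk1 was above 0 in 2 of 153 middle-range cells, and Zeb2 and Klrc1 in 0. A count of 0 allows a share of cells with a value above 0 of up to 2.38% by the exact interval and sets no limit on expression. Slamf7, of the killer cell receptor list, was above 0 in 4.58% (1.86 to 9.20%) of middle-range and 0.264% (0.0971 to 0.575%) of Ccl5-zero cells. Gzmm was above 0 in 5.23% and 0.573%, Xcl1 in 3.27% and 0.132%, and S100a4 in 3.27% and 0.220%. These 4 genes were chosen after their values were seen. Within the middle range, the 85 cells with Ly6c2 held Cxcr3 in 38.8% (28.4 to 50.01%), against 5.88% (1.63 to 14.4%) of the 68 cells without Ly6c2. Eomes, a T-box factor of memory cells, was above 0 in 13 of those 85 cells and 1 of those 68.

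The high range carried most of the difference. Among 2232 genes, 102 had at least 2 times the level of Ccl5-zero cells (4.57%) and 21 were as far below it (0.941%), while the median log2 ratio over these genes was 0.11. This range also differed in measures of the cells: the median number of genes above 0 was 2390 in the high range and 2213 in Ccl5-zero cells, and ribosomal protein genes made up 33.4% and 42.9% of the adjusted counts. In 80 of 153 high-range cells (52.3%) and 325 of 2269 Ccl5-zero cells (14.3%), over 36% of the values above 0 equalled exactly 1, a limit set after the values were seen. Without these cells, 42 genes were higher and 11 lower, of which 33 and 10 were among the 102 and 21. In the whole positive set 2 of the 7 higher genes stayed past 2-fold at 50 CPM without such cells. The part of this property in these lists was not tested. Without them Ly6c2 was at 972 CPM in the high range and 51.2 CPM in Ccl5-zero cells, Klrk1 at 197 and 0.807 CPM, Gzma at 217 and 3.996 CPM, and Zeb2 was above 0 in 11 of 73 and 2 of 1944 cells. The genes named below as higher or lower in the high range differed in the same direction without these cells, except Klf2.

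Killer cell receptors and their adaptors were found in many high-range cells. The list had 15 members that reached 10 CPM in one set or both, and 12 of them did so in the high range alone, so their number and ratios say nothing of direction. The 3 members at that level in Ccl5-zero cells were Klrd1, Hcst and Cd160, and all 3 were past 1.5-fold higher, beside 13.3% higher and 7% lower of the 5057 genes. Without the cells with many values of 1, 10 members were at 10 CPM or more in either set, and 2 of the 3 (Hcst and Cd160) were past 1.5-fold higher, beside 9.28% higher and 9.8% lower of 5132 genes. Several of the others were above 0 in only 1 to 12 Ccl5-zero cells, so they are given as shares of cells. Klrk1 was above 0 in 99 of 153 high-range cells (64.7%, 56.6 to 72.3%), against 12 of 2269 Ccl5-zero cells (0.529%). Klre1 was above 0 in 57 high-range cells (37.3%), against 8 Ccl5-zero cells. Klrc1, the inhibitory receptor NKG2A, was above 0 in 50 cells (32.7%), against 1. Klra9, of the Ly49 family, was above 0 in 45 cells (29.4%), against 2, and reads of this family may have been split between near-identical members. Klrg1, known from short-lived effector cells, and Klrb1c, known as NK1.1, were each above 0 in 26 cells (17.0%), against 1. Fcer1g, a signalling adaptor of Fc receptors, was above 0 in 44 cells (28.8%), against 7. Klrd1, the CD94 partner of NKG2A, was at 353 CPM in the high range and 187 CPM in Ccl5-zero cells, of which 80.4% and 65.1% had a value above 0. Hcst, the DAP10 adaptor through which NKG2D signals, was at 872 and 465 CPM.

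The genes of 4 of these receptors lie near each other on chromosome 6 (GENCODE M21 positions, GRCm38). Klre1 spans chr6:129577905-129585827, Klrd1 chr6:129591782-129598775, Klrk1 chr6:129610323-129623864 and Klrc1 chr6:129666015-129678973. Klrd1 had the smallest ratio of the 4, at 1.89-fold. Klrg1 lies apart from them, at chr6:122270596-122282882.

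For several genes, few cells outside the high range had a value above 0, although Klrd1 was above 0 in most cells of each range. Of all 115 Klrk1-positive cells at 0 h, 99 (86.1%) were in the high range, as were 50 of 52 Klrc1-positive cells and 49 of 51 Zeb2-positive cells. The high range was 5.18% of the cells. Gzma was spread more widely, with 47 of 116 positive cells in the high range and 54 in the Ccl5-zero set. Its level was nevertheless 774 CPM in the high range and 3.81 CPM in Ccl5-zero cells, with a highest single value of 117 adjusted counts in a positive cell and 7 in a Ccl5-zero cell.

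**Figure D2:**
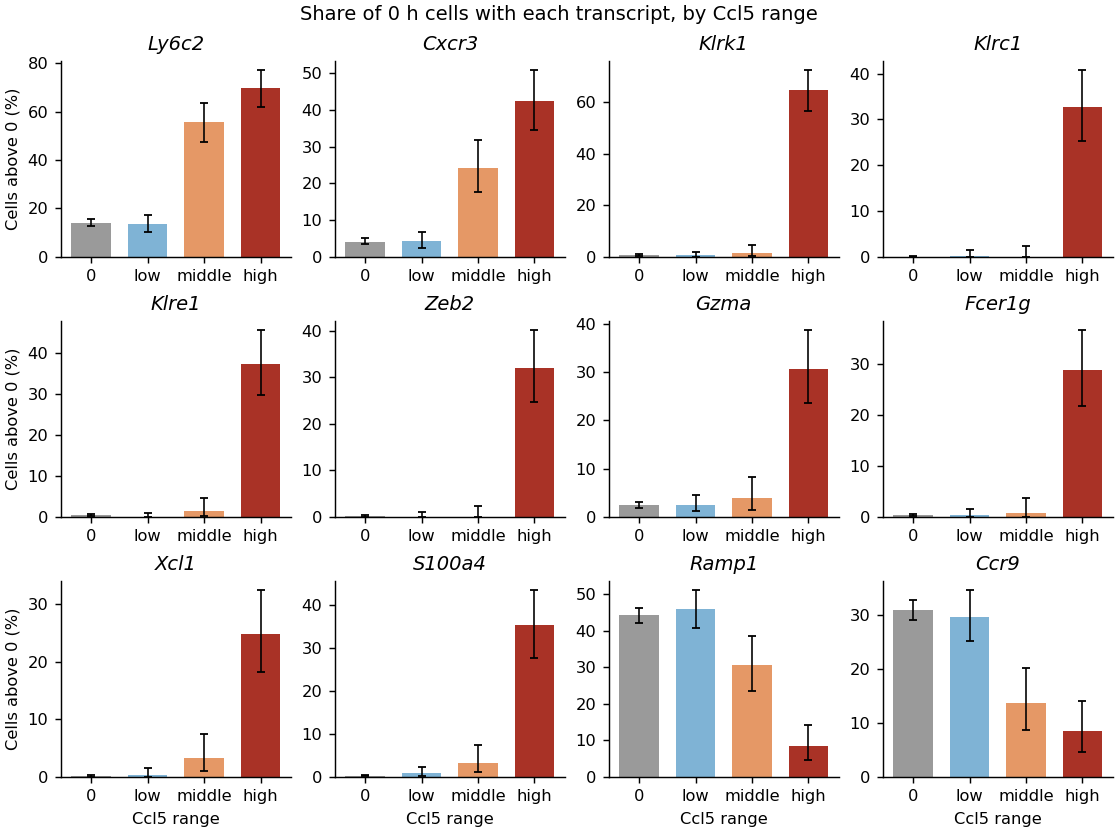
Share of 0 h cells above 0 (y axis, percent, each panel with its own scale) for 12 genes in cells with Ccl5 at 0 and in the low, middle and high ranges. Error bars are exact 95% intervals for counting error. Ly6c2 and Cxcr3 are already more frequent in the middle range (55.6% and 24.2%), Klrk1 and Zeb2 in the high range (64.7% and 32.0%), and Ccr9 is least frequent there (8.50%).

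Memory and virtual memory genes were higher as a group in the high range. Of the 17 members at 10 CPM or more in Ccl5-zero cells 14 exceeded 1.5-fold and 0 were as far lower, at a median log2 ratio of 1.09, beside 13.3% higher and 7% lower of the 5057 genes (median 0.10). Another 17 members, Cxcr3, Cd44, Zeb2, S100a4, Lgals3, Tbx21 and Eomes among them, reached 10 CPM in the high range alone and are not counted. Such members could not have been anything but higher, so their values below describe the cells and do not add to the group result. Without the cells with many values of 1, 10 of the 17 were higher and 0 lower (median 0.73), beside 9.28% and 9.8% of 5132 genes. In the whole positive set 6 of the 17 were higher and 0 lower (median 0.40), beside 0.653% higher and 0.395% lower of the 5057 genes. Ly6c2 was at 822 CPM in the high range and 48.3 CPM in Ccl5-zero cells. Cxcr3 was at 95.8 and 6.48 CPM, and Cd44, the hyaluronan receptor that marks memory cells, at 48.9 and 2.96 CPM. Il2rb, which encodes CD122, was at 144 and 34.8 CPM. Among Ccl5-zero cells Il2rb was itself above 0 in 76.9% of those with many values of 1 and 21.6% of the others, so its share moved with that property. Without such cells Il2rb was at 164 and 29.3 CPM. Id2, at 374 and 41.0 CPM, moved in the same way, above 0 in 55.1% of those Ccl5-zero cells and 17.4% of the others. Without such cells Id2 was at 264 and 35.9 CPM. Zeb2, a repressor known from terminal effector cells, was above 0 in 49 high-range cells (32.0%), against 2 of 2269 Ccl5-zero cells. The calcium-binding S100a4 was at 172 and 1.67 CPM, the galectin Lgals3 at 128.5 and 0.504 CPM, and the integrin chain Itgb1 at 114 and 12.5 CPM. Tbx21, which encodes T-bet, was at 30.8 and 0.913 CPM. Eomes differed less, at 19.45 and 6.77 CPM, and was above 0 in 9.80% and 4.58% of cells.

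Summed per cell, the 42 memory genes had a median of 123 adjusted counts in the high range and 50 in Ccl5-zero cells. In 117 of 153 high-range cells (76.5%, 68.9 to 82.9%) the sum lay above 84, the 95th percentile of the Ccl5-zero cells. The same held for 5.04% of low-range and 13.1% of middle-range cells. By this sum most cells of the high range passed that limit, and few of the 377 low-range cells, the largest of the ranges. The sum took in all 42 genes, of which 17 reach the minimum level for lists in the high range alone. It was not repeated without the 80 high-range cells left out above. The sum therefore cannot decide by itself whether the label memory-like holds for these cells.

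**Figure D3:**
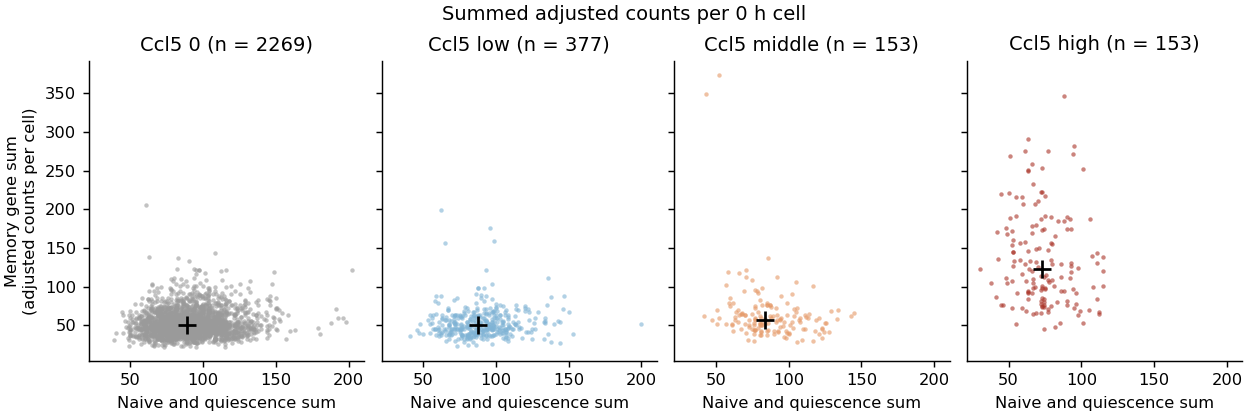
Summed adjusted counts of the memory genes (y axis) against those of the naive and quiescence genes (x axis) in single 0 h cells, in panels for Ccl5 at 0 and the low, middle and high ranges. Crosses are medians. The median memory sum is 123 in the high range and 50 at Ccl5 0, and the median naive sum 73 and 89.

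Cytotoxic and granule genes were past 1.5-fold higher in the high range for 7 of 13 members at 10 CPM or more in Ccl5-zero cells, with 0 lower (median log2 ratio 0.76), beside 13.3% higher and 7% lower of the 5057 genes. Without the cells with many values of 1 it was 6 of the 13 (median 0.31), beside 9.28% higher of 5132 genes. In the whole positive set it was 0 of the 13, beside 0.653%. Another 4 members, Gzma and Gzmm among them, reached that level in the high range alone and are not counted. Besides Gzma, Gzmm was at 78.3 CPM in the high range and 0.567 CPM in Ccl5-zero cells, and Ctla2a, a cathepsin inhibitor, at 312 and 105.5 CPM. Gzmb was at 705 and 246 CPM, and Nkg7, a granule membrane protein, at 2341 and 1062 CPM. Without the cells with many values of 1 they were at 398.7 and 239 CPM and at 1656 and 1062 CPM, both under 2-fold. Gzmb and Nkg7 were above 0 in nearly all 0 h cells, so their levels in Ccl5-zero cells may include an offset from the authors' adjustment. Prf1, perforin, was at 4.74 and 1.42 CPM, under the minimum level. Gzmk was above 0 in 8 high-range cells and listed at 0 in every Ccl5-zero cell.

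Single chemokine genes other than Ccl5 were also found in the high range, but chemokine and cytokine genes were not higher as a group. Of 8 members at the minimum level for lists in Ccl5-zero cells, 1 was past 1.5-fold higher and 0 lower (median log2 ratio 0.057). This stood beside 13.3% higher and 7% lower of the 5057 genes. Another 6 members, Xcl1 and Ccl4 among them, reached that level in the high range alone and are not counted. Xcl1, a chemokine that attracts cross-presenting DCs, was above 0 in 38 of 153 high-range cells (24.8%), against 3 of 2269. Ccl4 was at 145 CPM in the high range and 4.12 CPM in Ccl5-zero cells. Without cells with many values of 1, Ccl4 was at 36.9 and 1.47 CPM, and within the Ccl5-zero set it was above 0 in 28.0% of such cells and 1.08% of the others. Bcl2a1b, a survival gene, and Cish, a cytokine signalling inhibitor, moved in the same way within the Ccl5-zero set. They were above 0 in 28.0% and 30.2% of its cells with many values of 1, and in 4.27% and 0.823% of its others. Of the high-range cells with many values of 1, 86.3% and 87.5% had them. Klrk1 was above 0 in 1 and Xcl1, Zeb2, Klre1 and Klrc1 in 0 of the 325 Ccl5-zero cells with many values of 1. They were rare in the other 1944 Ccl5-zero cells too, Klrk1 in 11 and each of the others in fewer. Within the high range their shares were higher in the 80 cells with many values of 1 than in the 73 others. These were 76.25% and 52.05% for Klrk1, 52.5% and 20.55% for Klre1 and 47.5% and 15.1% for Zeb2. For Klrc1 they were 37.5% and 27.4%, and for Xcl1 26.25% and 23.3%. The part of that property was not tested.

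Genes of naive T cells were lower in the high range. Among 33 measured naive and quiescence genes, all of them at 10 CPM or more in Ccl5-zero cells, 19 were past 1.5-fold lower and 2 higher (median log2 ratio -0.65), beside 7% lower and 13.3% higher of the 5057 genes. Without the cells with many values of 1, 13 were lower and 2 higher (median -0.48), beside 9.8% lower and 9.28% higher of 5132 genes. In the whole positive set 5 of 33 were lower and 0 higher, beside 0.395% lower and 0.653% higher of the 5057 genes. Igfbp4, a growth factor binding protein of naive T cells, was at 22.3 CPM in the high range and 102 CPM in Ccl5-zero cells, Ccr9 at 15.2 and 57.4 CPM and the actin cross-linker Actn1 at 50.3 and 153 CPM. The largest ratio among the 21 lower genes was that of Ramp1, a subunit of the receptor for calcitonin gene-related peptide, at 12.3 and 86.6 CPM. The transcription factor genes Lef1 (144 and 310 CPM), Satb1 (153 and 309 CPM) and Id3 (46.0 and 100.1 CPM) were past 2-fold lower only with the cells with many values of 1 included. Tcf7, which encodes TCF1, was at 214 and 323 CPM and Ccr7 at 179 and 287 CPM. Klf2, a factor of quiescence and egress, was at 1046 and 945 CPM, a ratio whose sign changed with the scaling.

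**Figure D4:**
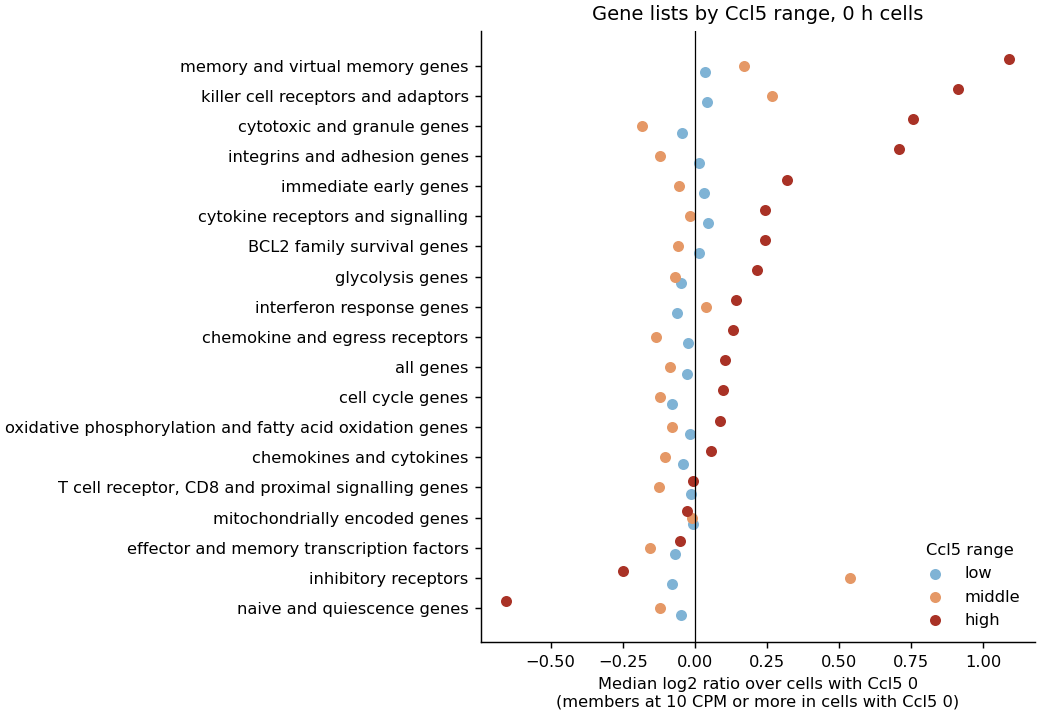
Median log2 ratio over Ccl5-zero cells (x axis) of the members of each gene list at 10 CPM or more in Ccl5-zero cells (y axis, lists with 3 or more such members), for the low, middle and high Ccl5 ranges; the row of all genes gives the background. In the high range memory genes (1.09) and the 3 killer cell receptor genes (0.92) lie highest and naive genes (-0.65) lowest.

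The lineage genes of CD8+ T cells were present in all ranges. Cd8b1, the CD8 beta chain, was at 1893 CPM in Ccl5-zero cells, 1807 in the low, 1718 in the middle and 1845 in the high range. Cd3d was at 1201 CPM in the high range and 1318 CPM in Ccl5-zero cells. Of 28 genes of the T cell receptor, CD8 and proximal signalling at 10 CPM or more in Ccl5-zero cells, 4 (14.3%) were higher and 2 (7.14%) lower in the high range, near the 13.3% and 7% of the 5057 genes (median log2 ratio -0.0055). Cd5, an inhibitor of receptor signalling whose level follows the strength of self recognition, was at 35.6 and 72.1 CPM. Of the NK and innate-like markers, 14 high-range cells (9.15%) had 3 or more, and 0 cells elsewhere at 0 h. Of the 10 listed markers 6 were measured, and Eomes did not count towards the 3 because over 5% of 0 h cells had it. The summed level of that list was 344 CPM in the high range and 8.18 CPM in Ccl5-zero cells. Those 14 cells had Cd8b1 at 2253 CPM and Cd3g at 1912 CPM, against 1893 and 1180 CPM in Ccl5-zero cells. Cd3d (969 and 1318 CPM) and Cd247 (144 and 225 CPM) were lower in them. T cell transcripts were thus listed in these cells, but these genes were above 0 in nearly all 0 h cells, so their levels may include an offset. Tyrobp, an adaptor abundant in NK cells, was above 0 in 9 high-range cells (5.88%) and 8 Ccl5-zero cells (0.353%). Without the 16 0 h cells with 3 or more markers of another type, 84 genes were higher and 19 lower in the high range. Other marker lists were not at 0 throughout. The CD4 and regulatory T cell markers summed to 29.9 CPM in the high range and 20.2 CPM in Ccl5-zero cells. Cd4 and Ctla4 were at 0 in all high-range cells, while Tnfrsf4, the costimulatory receptor OX40, was above 0 in 29 high-range cells (18.95%) and 26 Ccl5-zero cells (1.15%). Markers of gamma delta and unconventional T cells summed to 19.9 and 5.60 CPM, with Cd163l1 above 0 in 14 high-range cells (9.15%) and 13 Ccl5-zero cells (0.573%). B cell markers summed to 24.2 and 20.6 CPM, with Cd79a at 0 in the high range and Cd79b above 0 in 10.5% of high-range and 11.9% of Ccl5-zero cells. Myeloid and dendritic cell markers summed to 168 and 128 CPM, of which Cst3 made up 162 and 125 CPM, and 8 of 12, Lyz2 among them, were at 0 in all high-range cells. Erythroid and platelet markers summed to 4.74 and 0.724 CPM. The part of these markers in the results was not tested.

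The high range was not uniform. Its 99 Klrk1-positive cells had a median Ccl5 of 228 adjusted counts, against 87 in its 54 Klrk1-zero cells. Gzma was above 0 in 46.5% (36.4 to 56.8%) of the Klrk1-positive and 1.85% (0.0469 to 9.89%) of the Klrk1-zero cells. Zeb2 was above 0 in 47.5% (37.3 to 57.8%) and 3.70% (0.452 to 12.75%). Eomes was above 0 in 4.04% (1.11 to 10.0%) and 20.4% (10.6 to 33.5%). Cells with many values of 1 made up 61.6% of the Klrk1-positive and 35.2% of the Klrk1-zero cells, and their part in these shares was not tested. Ly6c2 was above 0 in 65.7% and 77.8% of these cells, and Cxcr3 in 36.4% and 53.7%.

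Ly6c2 divided the high range in another way. Its 107 Ly6c2-positive and 46 Ly6c2-zero cells held Klrk1 in 60.75% (50.8 to 70.1%) and 73.9% (58.9 to 85.7%). Cd160 was above 0 in 27.1% (19.0 to 36.6%) of the Ly6c2-positive and 78.3% (63.6 to 89.1%) of the Ly6c2-zero cells. Xcl1 was above 0 in 14.95% (8.80 to 23.1%) and 47.8% (32.9 to 63.1%). Ly6c2 was above 0 in 60% of the 80 high-range cells left out in the checks above and in 80.8% of the 73 others. Cd160 was above 0 in 53.75% and 30.1% of these cells, Klrk1 in 76.25% and 52.05%, and Xcl1 in 26.25% and 23.3%. The part of the left-out cells in the shares by Ly6c2 was not tested.

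Promoter sequences are shown for the 3 genes with the largest ratios in the whole positive set among genes at 50 CPM or more. They were not always found in the same cells: of the 116 Gzma-positive cells 54 had no Ccl5, and of the 85 Ly6c2-positive cells of the middle range 2 had Klrk1. Each is the 250 bases before the gene's start in RefSeq (GRCm38.p6), on the minus strand, for Klrk1 at chr6:129623865-129624114, for Gzma at chr13:113100982-113101231 and for Ly6c2 at chr15:75111972-75112221. Capitals mark TGTGGT or its reverse complement ACCACA, the core recognised by RUNX factors, which act in CD8+ T cell differentiation.
Klrk1: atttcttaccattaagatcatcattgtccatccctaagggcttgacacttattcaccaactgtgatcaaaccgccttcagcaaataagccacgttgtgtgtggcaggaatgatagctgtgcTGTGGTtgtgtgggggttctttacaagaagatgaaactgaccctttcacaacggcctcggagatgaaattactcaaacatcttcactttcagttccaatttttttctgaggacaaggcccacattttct
Gzma: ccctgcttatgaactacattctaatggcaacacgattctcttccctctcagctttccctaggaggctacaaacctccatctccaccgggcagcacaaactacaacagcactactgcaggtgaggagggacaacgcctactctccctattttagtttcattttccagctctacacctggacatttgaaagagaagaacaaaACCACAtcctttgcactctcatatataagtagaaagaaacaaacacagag
Ly6c2: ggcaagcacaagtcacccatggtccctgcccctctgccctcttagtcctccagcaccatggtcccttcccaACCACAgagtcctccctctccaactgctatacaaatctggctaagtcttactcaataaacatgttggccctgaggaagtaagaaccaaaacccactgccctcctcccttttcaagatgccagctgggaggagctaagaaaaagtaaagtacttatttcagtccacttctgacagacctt

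Each window holds this core once, as a match of letters and not as a measured binding site. It was found in a window of 5 of the 7 genes past 2-fold higher in the positive cells, the others with it being Cd160 and S100a6. Among 84 of the 102 genes higher in the high range with a RefSeq window, 27 had it (32.1%), and among 14 of the 21 lower genes 1 had it. Of the genes at 50 CPM or more with a window, 207 of 1523 had it in the comparison of the whole positive set (13.6%) and 248 of 1743 in that of the high range (14.2%), and of all 27025 genes with a window 15.9% had it. The T-box half-site GGTGTGA, bound by T-bet and Eomes and searched on both strands, was in a window of 1 of the 7 genes (Cd160), of 9 of the 84 (10.7%), of 42 of the 1523 (2.76%) and of 52 of the 1743 (2.98%). The end of TGTGGT and the start of GGTGTGA share the letters GGT, so the searches are not independent. Genes with several RefSeq starts have several windows, and binding was not measured.

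After stimulation part of the same set went with Ccl5. Of the 7 genes, 4 were at least 2-fold higher in Ccl5-positive than in Ccl5-zero cells at 24 h with DCs, 4 at 24 h with DCs and MDSCs, 1 at 72 h with DCs and 2 at 72 h with DCs and MDSCs. The shares of all genes at 10 CPM or more past 2-fold higher were 0.237%, 0.238%, 0.121% and 0.0949%. Ly6c2 was higher in each of the 4, at 36.8 CPM in positive and 13.5 CPM in Ccl5-zero cells at 24 h with DCs, 39.6 and 15.3 CPM at 24 h with DCs and MDSCs, 84.3 and 29.7 CPM at 72 h with DCs and 44.9 and 19.3 CPM at 72 h with DCs and MDSCs. Klrk1 was at 20.1 and 1.65 CPM at 24 h with DCs and at 22.1 and 2.48 CPM at 24 h with DCs and MDSCs. At 72 h it was at 47.2 and 42.6 CPM with DCs and 51.05 and 37.0 CPM with DCs and MDSCs, where 33.5% and 31.8% of the Ccl5-zero cells had it too. Cxcr3 was at 22.5 and 20.1 CPM at 24 h with DCs, and its log2 ratio lay between -0.14 and 0.25 in the 4 libraries.

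Ccl5 values of 45 or more were found in 0.576% of cells at 24 h with DCs and in 0.0607% at 72 h with DCs and MDSCs, so the high range could not be followed, and a lower limit of 3 was used. With it 5, 5, 3 and 4 of the 7 genes were at least 2-fold higher at 24 h with DCs, 24 h with DCs and MDSCs, 72 h with DCs and 72 h with DCs and MDSCs. The shares of all genes were 2.02%, 1.29%, 0.662% and 2.49%. Klrc1 was above 0 in 12 of 86 such cells and 10 of 1207 Ccl5-zero cells at 24 h with DCs, and in 8 of 44 and 39 of 4612 at 72 h with DCs and MDSCs. Klre1 was above 0 in 11 of the 86 and 4 of the 1207, and in 8 of the 44 and 56 of the 4612. At 72 h with DCs the shares were lower, with Klrc1 in 6 of 108 (5.56%) and 9 of 1483 (0.607%) and Klre1 in 4 of 108 (3.70%) and 19 of 1483 (1.28%). At 24 h with DCs and MDSCs Klrc1 was above 0 in 13 of 100 and 17 of 1812, and Klre1 in 14 of 100 and 12 of 1812. The cells of the other libraries were not traced from those at 0 h. The 0 h values of many genes may carry an offset, which was not measured, so ratios are set side by side and not compared in size.

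**Figure D5:**
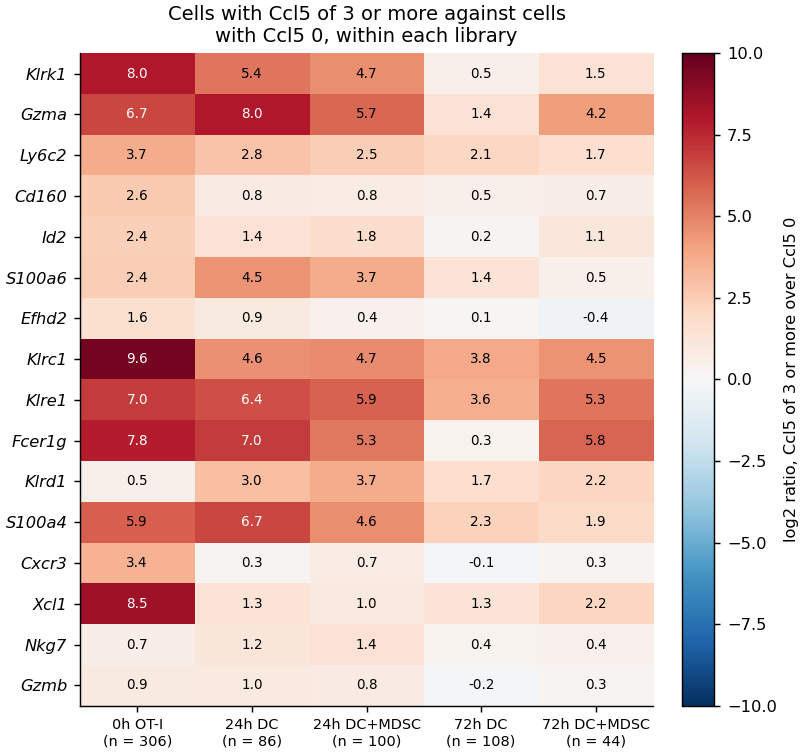
Log2 ratio (colour and printed value) of 16 genes in cells with Ccl5 of 3 or more over cells with Ccl5 0 within each of the 5 libraries, with n the number of cells at 3 or more. Ly6c2, Klrc1 and Klre1 are positive in all 5 libraries, whereas Cxcr3 is at 3.4 at 0 h and between -0.1 and 0.7 later.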

How the data were processed

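Sorted cells were run on 10x Genomics droplets, per the labels' protocols. The submitters' processing notes name Cell Ranger 2.0.1, Seurat and build mm10. For each gene and cell the authors deposited a natural log, ln(1 + n), in which n is whole. The adjustment behind n is not given, and depth is unknown, since the adjusted total was nearly constant (13061 to 15759 per 0 h cell). They are not molecule counts, so no count model was used and doublets were not treated. Each n was back-calculated with the exponential and summed over a set of cells (Python 3.11.15, NumPy 2.4.6). Genes at 50 CPM or more were called past 2-fold, and list members (24 lists) at 10 CPM or more in Ccl5-zero cells past 1.5-fold, where a level in either set had been planned. The members, lists and ranges were chosen with earlier results of these data known. Groups of equal size by rank had been planned, but ties at 2 did not allow them. Named genes were those with the largest ratio past the limits, the 2 members of each list farthest past 1.5-fold at 20 CPM or more, and fixed genes; genes named for the ranges, the receptor cluster and the genes without an effect were chosen after their values were seen. Intervals are exact (Clopper-Pearson). Calls by size were checked on simulated cells. Alternatives were another weight per cell, total, centring, minimum level, matched genes per cell, and sets of cells or genes left out.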

Additional observations from a re-analysis of the deposited data

How the results depend on the processing

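No paired analysis was possible because each group is 1 library and no test was run. The 7 genes higher in Ccl5-positive cells became 2 when sets were averaged on the natural log scale, 15 with a total without ribosomal protein and mitochondrial genes, 43 at a minimum of 10 CPM, 2 at 200 CPM, 2 without cells with many values of 1 (added after seeing the data), 27 with the 306 positive cells above the median Ccl5 of 2 and 0 with the 377 others; lower genes went to 6 with the 306. Over all members at 10 CPM or more in either set, including those that reach it in positive cells alone, the memory list's median log2 ratio became 0.516 with mean natural log values, 0.290 without cells with many values of 1 and 0.0399 with the 377. The killer cell receptor list's became 0.55 and 0.0439 under those last settings. With the total without ribosomal protein and mitochondrial genes, chemokine receptors reached 0.618 and inhibitory receptors 1.002; with the 306 they reached 1.02 and 2.62, and cytotoxic genes 0.697. With the 377, log2 ratios turned negative for Gzma (-0.247), Il2rb (-0.205), AW112010 (-0.0526), Ccl4 (-0.990), Cxcr6 (-0.190), Bcl2a1b (-0.0345) and Fcer1g (-0.875). For the high range, lower genes were 11 with mean natural log values and 41 without ribosomal protein and mitochondrial genes in the total. Of its 102 higher genes 58, 70 and 68 remained with mean natural log values, that total and matched genes per cell. At 10 CPM there were 420 higher and 139 lower, at 200 CPM 19 and 5, and without cells with many values of 1 there were 42 and 11. For the middle range, higher and lower genes were 1 and 0 with mean natural log values, 47 and 56 at 10 CPM, and 1 and 0 at 200 CPM. There were 8 higher with the total without ribosomal protein and mitochondrial genes. There was 1 lower gene after centring and 1 without cells with many values of 1, and 0 with Ccl5-zero cells weighted to equal genes per cell. For the low range, 10 CPM gave 1 and 1. Of the 7 genes, 2 were higher at 24 h with DCs under mean natural log values. With Ccl5 of 3 or more, 3 were higher at 72 h with DCs and 4 at 72 h with DCs and MDSCs. The cause of these shifts was not tested, except that a different minimum level changes how many genes are counted. Depth is unknown, so small shares could not be corrected for it.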

Other observations

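Other groups of genes differed less between the high range and the Ccl5-zero cells. Counts are over genes at 10 CPM or more in Ccl5-zero cells, of which 13.3% were past 1.5-fold higher and 7% lower among all genes (median log2 ratio 0.10). Interferon response genes were 3 higher and 4 lower of 38 (median 0.14). Of 27 oxidative phosphorylation and fatty acid oxidation genes 1 was higher and 1 lower (median 0.088), and glycolysis genes had 1 higher and 0 lower of 11 (median 0.22). Of 20 cell cycle genes 4 were higher and 0 lower (median 0.099), but without the cells with many values of 1 it was 0 higher and 4 lower (median -0.25), beside 9.28% higher and 9.8% lower of all genes. The 12 mitochondrially encoded genes were all between the limits (median -0.029).

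Genes known from migration to tissues and from late effector cells were also found in the high range at lower level. Cx3cr1, the fractalkine receptor, was at 39.4 CPM in high-range cells and 0.220 CPM in Ccl5-zero cells. S1pr5, an egress receptor, was at 33.7 CPM in high-range cells and listed at 0 in every Ccl5-zero cell. Bhlhe40 was at 34.6 and 0.220 CPM. These 3 genes were chosen after their values were seen.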
